A study of Drosophila erecta with 23 samples.

Results

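The libraries of *Drosophila erecta* embryos aged 4-5 h and 5-6 h were compared with the libraries on either side of them in the time series, 3-4 h and 6-7 h. A gene or transcription start site cluster (TSC, a group of neighbouring start sites taken as a promoter) was set apart when its mean level at 20-23 h exceeded its larger level at 3-4 h and 6-7 h, because the 4-5 h and 5-6 h libraries hold RNA typical of late embryos. The features that were not set apart are called the 4-6 h programme here and comprised 5831 of 8948 genes and 15121 of 22632 TSCs. The features set apart were 3117 genes and 7511 TSCs. Of the programme, 78 genes and 1291 TSCs were at 0 in both flanking libraries and at 20-23 h.

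RAMPAGE, which sequences complementary DNA that reaches the 5′ end of the transcript and so maps start sites and counts their use, was applied to whole embryos of the wild-type strain from which the reference genome was made. Embryos from population cages were collected in windows of 1 h and aged, giving 23 libraries of 1 sample each, all barcoded and processed together. The 4 libraries compared here share strain and treatment, and by their labels differ in age after egg laying. No hour was replicated, so a difference between hours has no replicate check, and in whole embryos fewer cells of a type and less RNA per cell cannot be told apart. Values of the 4 libraries are given below in order of age, that is for 3-4 h, 4-5 h, 5-6 h and 6-7 h. In this order the TSC values rest on 5698586, 3394273, 1815382 and 1296809 reads. Levels are in RPM, the number of reads scaled to an equal total per library, and 1 read was worth 0.175 RPM at 3-4 h and 0.771 RPM at 6-7 h.

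In the first hours of fly development, RNA that the mother placed in the egg is degraded while the embryo's own genome is switched on, first for genes that pattern the body axes. As known from *D. melanogaster*, gastrulation then moves the mesoderm and gut primordia inside, the germ band extends and cell fates are set. Genes of differentiated structures such as the larval cuticle are mostly used in late embryos. The gene table lists genes by *D. melanogaster* identifiers and the TSC table by *D. erecta* ones. Of the gene identifiers, 155 had the same values as another in all 23 libraries (77 distinct profiles), 4 of them among the higher programme genes below and 0 among the lower ones. The files list genes by identifier alone, so promoters are given below by their position on the scaffolds of FlyBase release 1.3, and no gene function is stated.

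The features set apart took a larger share of the reads at 4-5 h and 5-6 h than at either flank. For genes, the shares in order of age were 4.71% (95% Wilson interval 4.69 to 4.72), 11.1% (11.0 to 11.1), 8.34% (8.30 to 8.38) and 4.27% (4.24 to 4.31). For TSCs they were 5.57%, 20.3%, 14.0% and 5.91%. The intervals cover counting error only. Both 4-6 h libraries stood above both flanks in either table, and the 4-5 h library stood above the 5-6 h library. These shares describe the split, since the flanking levels took part in choosing the features.

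**Figure D1:**
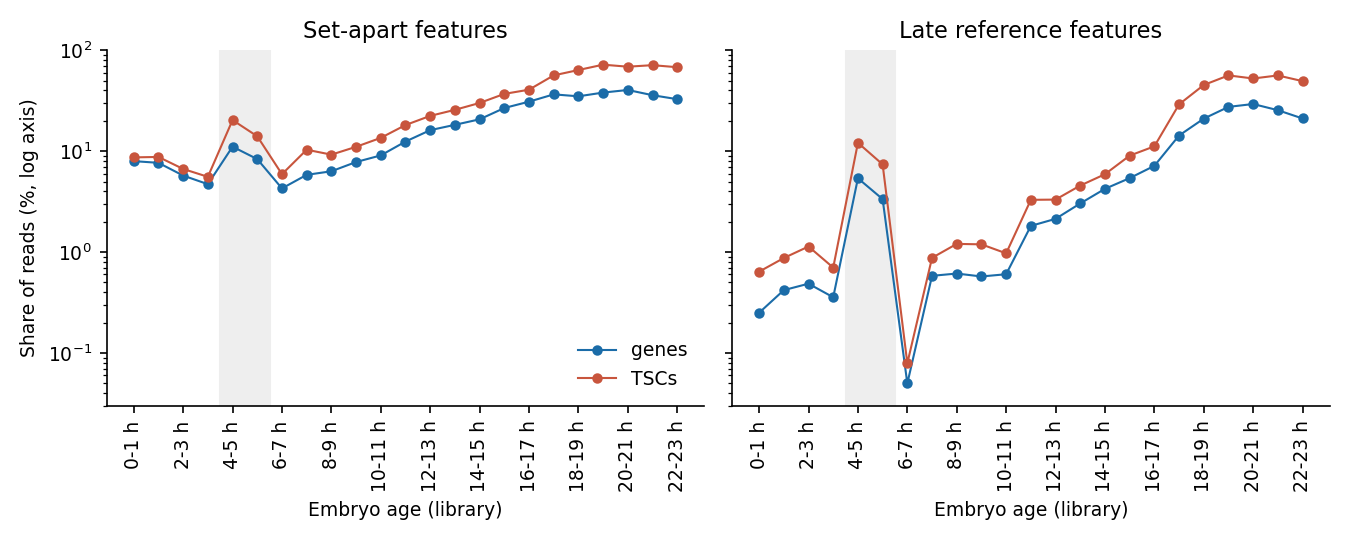
Share of reads (percent, log axis) in each of the 23 libraries that fell in features set apart (left) and in the late reference features (right), for genes and TSCs; the grey band marks 4-5 h and 5-6 h. The late reference TSCs held 12.1% of the reads at 4-5 h and 7.39% at 5-6 h, against 0.702% at 3-4 h and 0.0790% at 6-7 h. The shares at 3-4 h and 6-7 h were bounded by the choice of these TSCs, which held 1.14% at 2-3 h and 1.21% at 8-9 h.

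A narrower reference describes the late signal itself. It holds the 315 genes and 488 TSCs with a mean of at least 50 RPM at 20-23 h and under 5% of that level at 3-4 h and 6-7 h. The median reference TSC reached 19.9% of its late level at 4-5 h (10th to 90th percentile 9.82 to 35.2%) and 11.8% at 5-6 h (5.54 to 19.5%), against 1.26% at 3-4 h and 0% at 6-7 h. The values at 3-4 h and 6-7 h were bounded by the choice of the reference. At hours that took no part in the choice, the median was 1.69% at 2-3 h and 2.89% at 8-9 h. The level at 4-5 h exceeded that at 5-6 h for 268 of the 315 reference genes (85.1%). Across these genes, the rank correlation of 4-5 h with the libraries from 11-12 h on was highest with 20-21 h (Spearman's rho = 0.86), and that of 5-6 h was highest with 22-23 h (0.83), next to 0.81 with 20-21 h. These correlations are across genes, which are not independent replicates, and are given as a description, since the late libraries took part in choosing the genes.

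The strongest promoters among the features set apart carried much of this signal. A TSC on the minus strand of scaffold 4784, from 8822442 to 8822606, had 832, 32966, 11677 and 25.4 RPM in order of age, with a mean of 62175 RPM at 20-23 h. Its neighbour on the same strand, from 8824985 to 8825378, had 1190, 14277, 13826 and 24.7 RPM. The first of this neighbouring pair was far higher at 4-5 h than at 5-6 h and the other almost level, so the make-up of the signal differed between these libraries. A TSC on scaffold 4845, from 18622701 to 18623082 on the plus strand, had 631, 3207, 5332 and 11.6 RPM and was thus higher at 5-6 h than at 4-5 h. A TSC on the plus strand of scaffold 4784, from 20969991 to 20970138, had 354, 10282, 3699 and 10.0 RPM.

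Not every feature set apart was highest in the late libraries, and not every one rose above both flanks. On scaffold 4784, the TSC from 212298 to 212329 on the plus strand had 2616, 16699, 8575 and 8321 RPM, and was highest of all libraries at 7-8 h (21354 RPM). Another strong TSC lay from 6490564 to 6490971 on the minus strand of scaffold 4929. It had 2615, 6294, 6085 and 7997 RPM and so stayed below the later flank. This TSC was nevertheless late, with a late mean of 29133 RPM and its highest level at 22-23 h (43486 RPM). The first of these lay just inside the threshold of the split, with a late mean of 8335 RPM against a larger flank of 8321 RPM. Just outside lay the TSC from 2981230 to 2981397 on the plus strand of scaffold 4820, whose late mean was 158.3 RPM against a larger flank of 158.9 RPM and which had 253.1 RPM at 4-5 h. Of the TSCs with a mean of at least 5 RPM over the 4 libraries, 397 had a late mean within 1.2-fold of the larger flank.

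To describe the programme, features with a mean of at least 5 RPM over the 4 libraries were kept, which left 4889 genes and 6815 TSCs of the programme. A feature was called higher when both 4-5 h and 5-6 h exceeded both flanks and the mean difference was at least 1 on the log2(RPM + 1) scale, and lower in the mirrored case. By this rule 80 programme genes (1.64%) were higher and 126 (2.58%) lower, beside 8.59% higher and 2.38% lower over all 5936 genes kept. The programme's TSCs gave 131 higher (1.92%) and 428 lower (6.28%), beside 9.25% higher and 5.49% lower over all 8129 TSCs kept. Without 3-4 h, 4-5 h, 5-6 h or 6-7 h the rule compares fewer values and gave 166, 162, 155 and 436 higher programme genes and 256, 197, 366 and 418 lower ones. With all 4 libraries, the programme's share of lower features was near the background in both tables, and its share of higher features was below it. The background of higher features was made up mostly of features set apart, of which 430 of 1047 genes and 621 of 1314 TSCs were higher, a contrast that the split itself favours. The background of lower features was made up mostly of the programme (126 of 141 genes and 428 of 446 TSCs), so it is no separate comparison. Of the features set apart that were kept, 329 genes and 499 TSCs had a flanking mean under 5 RPM and so passed the filter through the 4-6 h libraries, as did 76 genes and 173 TSCs of the programme.

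**Figure D2:**
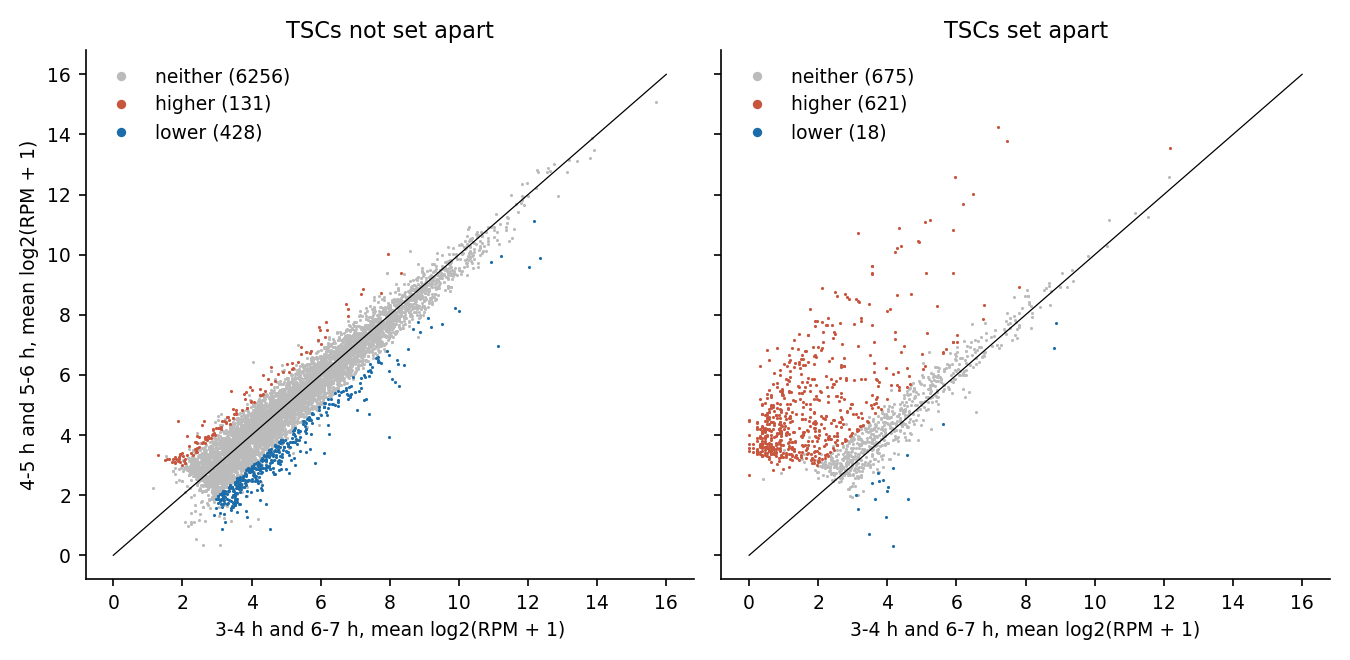
Each point is a TSC with a mean of at least 5 RPM over the 4 libraries, placed by its mean log2(RPM + 1) in the flanking libraries (horizontal) and at 4-5 h and 5-6 h (vertical); the line marks equal levels, and red and blue mark TSCs called higher or lower. Of the TSCs not set apart (left), 131 were higher and 428 lower, while of those set apart (right), 621 were higher and 18 lower.

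The balance between higher and lower depended on the scale. RPM was also rescaled to the reads of the features not set apart, so that reads of the others no longer counted in the total, which moved the median difference over all kept genes from 0.03 to 0.15 and that over all kept TSCs from -0.01 to 0.18 (log2). On that scale 138 programme genes were higher and 83 lower, and 257 TSCs were higher and 272 lower. With TMM factors, another scaling, 77 programme genes were higher and 139 lower, and 94 TSCs were higher and 566 lower, at a median difference over all kept TSCs of -0.11. The balance in genes therefore turned under the first rescaling and kept its direction under TMM, and the excess of lower TSCs shrank under the first and grew under TMM. Subtracting from each 4-6 h library the late profile at the median ratio of the reference features, and rescaling to RPM, gave 172 higher genes and 285 higher TSCs. The rescaling after subtraction raises every programme feature with little late signal, so these counts say nothing of where its RNA came from.

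Most of the programme was not set off from its flanks. Of the 6815 TSCs, 868 (12.7%) lay above both flanks by any amount and 1511 (22.2%) below both. Another 861 (12.6%) lay between a lower 3-4 h and a higher 6-7 h value, and 678 (9.95%) between flanks in the opposite order. The other 2897 had their 4-6 h values on different sides of a flank or level with it. Of the remaining TSCs kept, the 1314 set apart, 780 (59.4%) lay above both flanks and 68 (5.18%) below both. The median difference was -0.09 (log2; quartiles -0.47 and 0.26) for programme TSCs and -0.05 for programme genes, against 0.97 and 0.74 for the features set apart. Across the programme's genes, the rank correlation between neighbouring libraries was 0.90 for 3-4 h with 4-5 h, 0.94 for 4-5 h with 5-6 h and 0.95 for 5-6 h with 6-7 h, and 0.88 between the flanks. Across the genes set apart, 4-5 h correlated less with the flanks (0.54 with 3-4 h and 0.36 with 6-7 h) than with 5-6 h (0.82). The flanking levels took part in setting features apart, so the split itself favours these lower correlations and the larger median differences.

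Where the flanks of programme TSCs differed strongly, the 4-6 h values mostly lay between them. Counted separately, 5-6 h mostly lay further along than 4-5 h. Of the programme TSCs at least 4-fold higher at 6-7 h than at 3-4 h (on the RPM + 1 scale), 163 of 240 (67.9%) had both 4-6 h values between the flanks. The median TSC had covered 52.3% of the log2 distance at 4-5 h and 73.6% at 5-6 h. Of those at least 4-fold lower at 6-7 h, 152 of 206 (73.8%) had both values between the flanks, with 48.4% of the distance covered at 4-5 h and 63.6% at 5-6 h. The 5-6 h value was further along than the 4-5 h value in 171 of the 240 and 138 of the 206, whether or not both lay between the flanks. Of the TSCs set apart that were at least 4-fold lower at 6-7 h, 13 of 159 (8.18%) had both values between the flanks, and of those at least 4-fold higher, 18 of 30 (60.0%). These shares describe single libraries and were not tested.

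**Figure D3:**
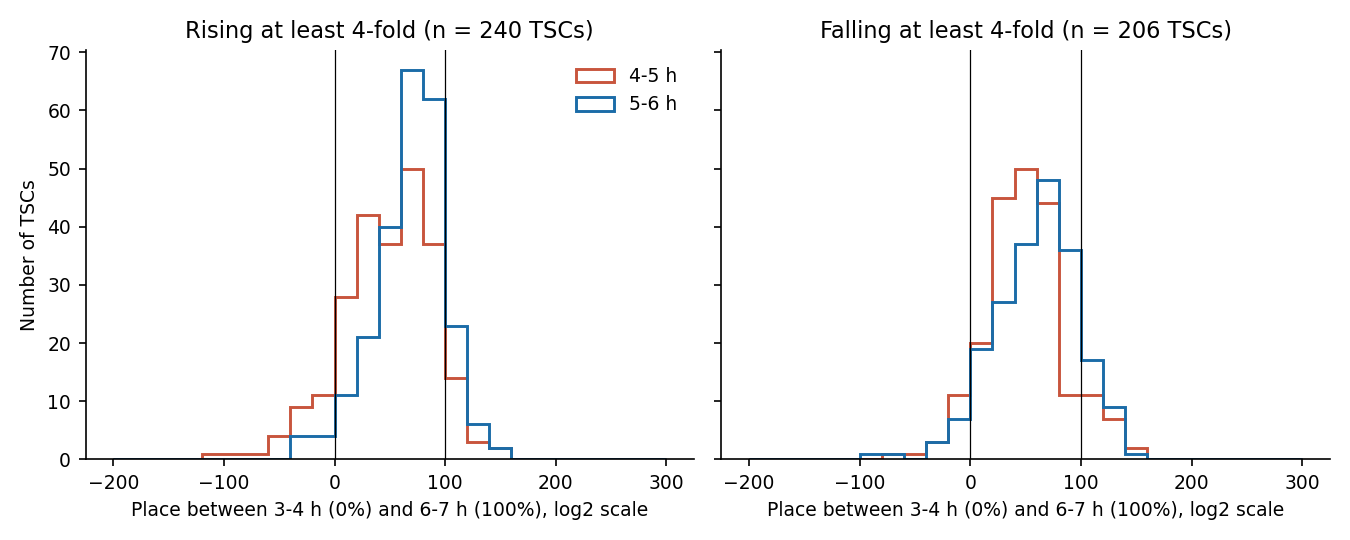
Number of programme TSCs by their place between the flanking libraries, where 0% is the log2(RPM + 1) level at 3-4 h and 100% that at 6-7 h, for the 240 TSCs rising and the 206 falling at least 4-fold; red outlines are 4-5 h and blue outlines 5-6 h. The median place moved from 52.3% to 73.6% in rising TSCs and from 48.4% to 63.6% in falling ones.

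Some promoters stepped in 1 direction through all 4 libraries. In all, 553 programme TSCs had a higher value in each library than in the one before and 373 a lower one, as read from the values and without a test. No share over all TSCs is set beside these counts, so they show no excess over other courses. The steepest upward course among those with at least 50 RPM at 6-7 h was at a TSC on scaffold 4845, from 8159099 to 8159240 on the minus strand, with 8.60, 41.0, 63.9 and 149.6 RPM. A TSC on scaffold 4770, from 13508924 to 13509094 on the minus strand, had 7.37, 22.1, 61.1 and 125.7 RPM, the last its highest level in the series. Both stood between their flanks at 4-5 h and again at 5-6 h.

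The steepest downward courses ended at levels at or near 0. The TSC from 14373749 to 14373816 on the minus strand of scaffold 4929 had 242.0, 1.47, 0.551 and 0 RPM, where the Wilson interval of the 0 at 6-7 h reaches 2.96 RPM. The TSC from 17760370 to 17760453 on the plus strand of scaffold 4784 had 212.9, 10.3, 1.10 and 0 RPM, after 489.9 RPM at 2-3 h. The TSC from 8721470 to 8721486 on the minus strand of scaffold 4770 had 193.4, 41.2, 5.51 and 0.771 RPM. In RPM, at least 79.0% of the difference between the flanks was present at 4-5 h in each of these promoters, whereas on the log2(RPM + 1) scale the shares were 83.5%, 54.8% and 32.5%. Their highest mean at 20-23 h was 0.097 RPM.

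Of the 131 higher TSCs, 30 had at least 50 RPM in both 4-6 h libraries, and the 12 with the largest differences are described. The largest difference (2.09 on the log2 scale) belonged to a TSC on scaffold 4845, from 15185580 to 15185842 on the minus strand. It had 584 (95% Wilson interval 565 to 605), 1622 (1579 to 1665), 669 (633 to 708) and 101.8 RPM (85.8 to 120.7). The difference thus rested on the 4-5 h level and the low 6-7 h level, since 3-4 h and 5-6 h were close, and the TSC had 932 RPM at 2-3 h and 1392 RPM at 8-9 h. In the gene table, FBgn0015602 had the largest difference, with 680, 1706, 747 and 115.8 RPM.

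Some of the higher promoters were raised above both flanks at both hours by wide margins. A TSC assigned to no gene on the minus strand of scaffold 4770, from 4538322 to 4538370, had 111.6 (103.3 to 120.6), 418 (397 to 441), 501.3 (470 to 535) and 197.4 RPM (174.7 to 223.1). A TSC on scaffold 4770, from 9336225 to 9336370 on the plus strand, had 47.2, 232.7, 201.1 and 103.3 RPM. In both, the lower of the 4-6 h values was well above the higher flank. A second TSC with no gene, on scaffold 4784 from 17786323 to 17786433 on the plus strand, had 63.9, 228.6, 139.9 and 59.4 RPM. In the order given, these TSCs were highest in the series at 9-10 h (640 RPM), 0-1 h (377 RPM) and 12-13 h (373 RPM), not at 4-6 h. In the same order their late means were 191.8, 4.22 and 44.4 RPM. The first of these lay just under its larger flank of 197.4 RPM, so that TSC was close to being set apart.

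Other promoters were high at 4-5 h above all. The TSC from 8926227 to 8926301 on the minus strand of scaffold 4845 had 23.2, 115.8, 50.7 and 22.4 RPM, and FBgn0034400 in the gene table had the like course of 23.2, 114.8, 50.3 and 23.0 RPM. The TSC from 12509133 to 12509440 on the minus strand of scaffold 4784 had 241.1, 402, 263.9 and 46.3 RPM, so that 5-6 h barely exceeded 3-4 h. For the TSC from 3503930 to 3503962 on the plus strand of scaffold 4845, at 20.0, 156.4, 93.1 and 87.1 RPM, 5-6 h and 6-7 h were close. The remaining 5 of the 12 had differences from 1.32 to 1.62, and 1 of them, on scaffold 4690 from 11472139 to 11472200 on the minus strand, had 19.0, 66.9, 98.1 and 53.2 RPM and so was higher at 5-6 h than at 4-5 h.

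**Figure D4:**
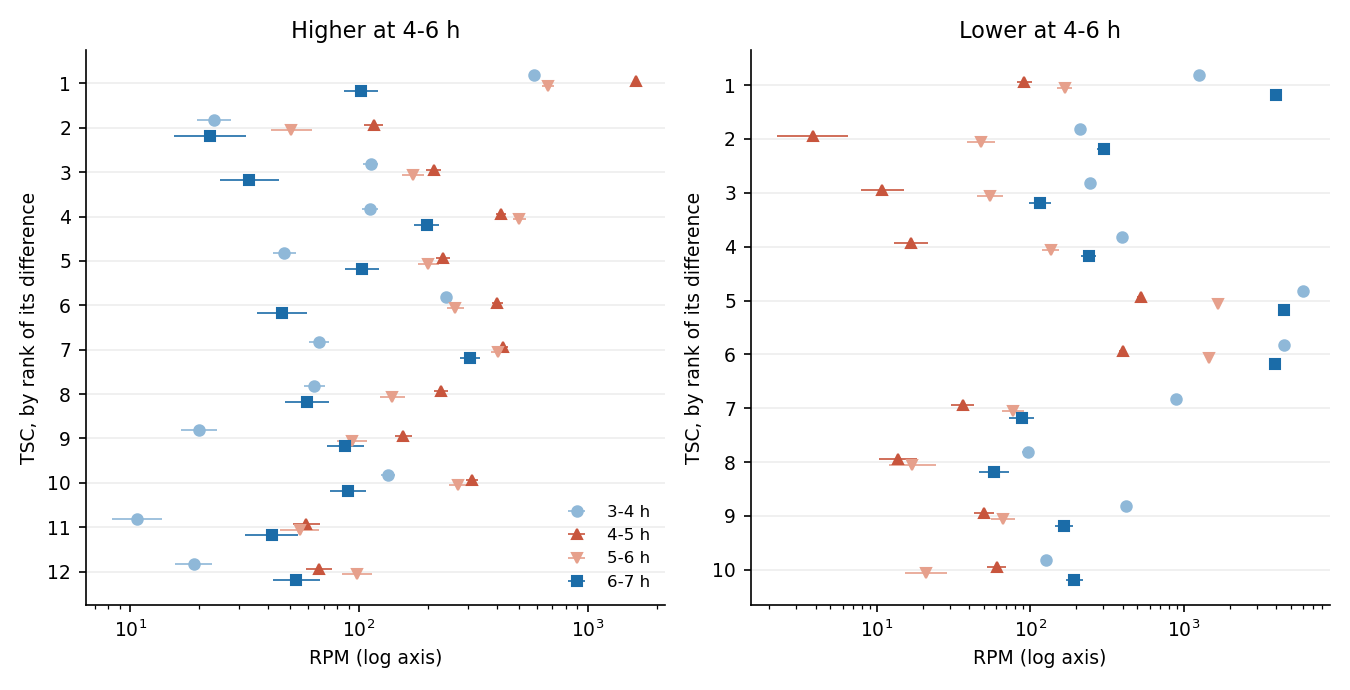
RPM (log axis) in the 4 libraries for the 12 TSCs described as higher and the 10 described as lower at 4-6 h, ranked by their log2 difference; bars are 95% Wilson intervals of the read counts and cover counting error only. In every case both 4-6 h values lie outside both flanks, with margins as wide as 91.3 and 168.0 RPM against 1263 and 4019 RPM for the first of the lower TSCs.

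The higher TSCs were not all transient. Their highest library of the whole series was 4-5 h or 5-6 h for 61 of 131 (46.6%), against 676 of all 6815 programme TSCs kept (9.92%), a measure that shares its values with the rule. For 27 of them it was 7-8 h, the shallowest library with 142224 reads, and for 20 it was 0-1 h. Both 4-6 h values exceeded both 2-3 h and 8-9 h in 92 of 131 (70.2%), against 19.2% of all programme TSCs kept. The 4-5 h level was above the 5-6 h level in 75 of 131 (57.3%), against 38.5%. Their median width was 66 bp against 104 bp for all programme TSCs kept, and 68 bp for the higher TSCs set apart. Of the 131, 29 (22.1%) had no gene, as had 97 of the 428 lower TSCs (22.7%), against 11.2% of all programme TSCs kept. Both sets were weaker, with a median level over the 4 libraries of 14.0 RPM (higher) and 15.0 RPM (lower), against 28.9 RPM for all kept. Level was not matched in these contrasts of width and gene.

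Of the 428 lower TSCs, 82 had at least 50 RPM in both flanks, and 6 of the 10 with the largest differences lay on scaffold 1390. The first, from 13952 to 14415 on the minus strand, had 1263 (1234 to 1292), 91.3 (81.7 to 102.1), 168.0 (150.2 to 188.0) and 4019 RPM (3912 to 4129), a difference of -4.17. The fifth, from 628 to 1103 on the plus strand, had 5961, 523, 1682 and 4469 RPM. Both strands were low in the same libraries.

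Scaffold 1390 held 29 TSCs between 628 and 15334, 15 on the plus and 14 on the minus strand, none of them assigned to a gene. All 18 that were kept lay below both flanks and 17 were called lower, with a median difference of -2.09, and all 18 were lower at 4-5 h than at 5-6 h. Summed over the scaffold, the level was 14772 (14674 to 14872), 1639 (1597 to 1683), 4474 (4378 to 4572) and 14944 RPM (14737 to 15155) in order of age. The dip was not particular to 4-6 h, since the sum was also 2339 RPM at 8-9 h and 2242 RPM at 9-10 h, between 23083 RPM at 7-8 h and 18626 RPM at 10-11 h. At 15-16 h it was 1227 RPM, next to 14404 RPM at 14-15 h and 4307 RPM at 16-17 h. The sum was also low at 0-1 h (2300 RPM) and 1-2 h (2416 RPM), and stayed between 821 and 1429 RPM from 18-19 h on. Over the 23 libraries the log2 sums of both strands ran together (Pearson's r = 0.93, Spearman's rho = 0.92), a description of TSCs that share scaffold and library. Without this scaffold 411 programme TSCs were lower.

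**Figure D5:**
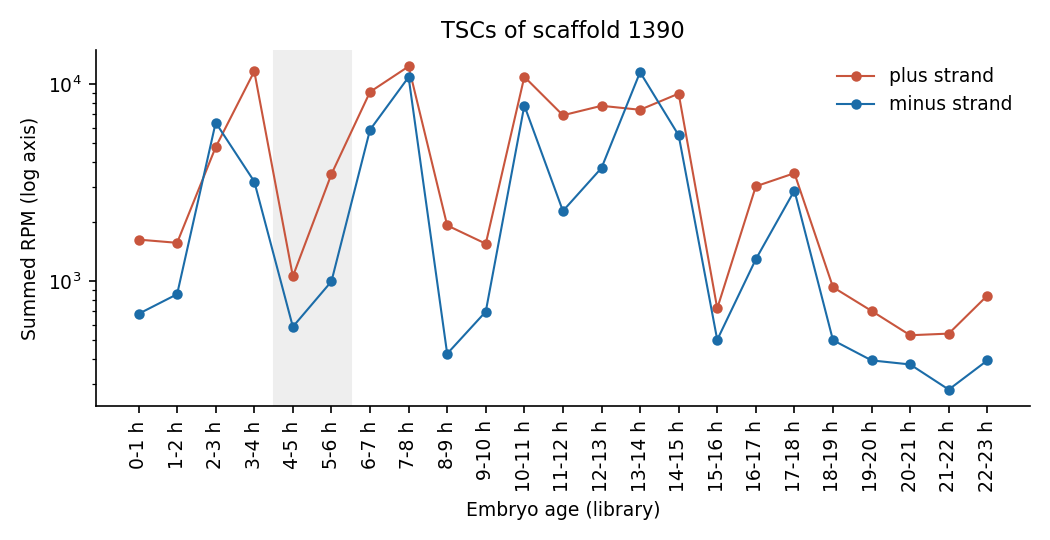
Summed RPM (log axis) of the TSCs on the plus and minus strands of scaffold 1390 in each of the 23 libraries, with 4-5 h and 5-6 h in grey. The sum over both strands is 1639 RPM at 4-5 h and 4474 RPM at 5-6 h, between 14772 RPM at 3-4 h and 14944 RPM at 6-7 h, and comparable dips lie at 8-10 h and 15-16 h.

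Among lower TSCs with a gene, the largest difference came with flanks that differed widely. The TSC from 2940390 to 2940467 on the plus strand of scaffold 4770 had 895 (871 to 920), 36.2 (30.4 to 43.2), 77.1 (65.4 to 91.0) and 87.9 RPM (73.2 to 105.6). Its 5-6 h and 6-7 h intervals overlapped, so at this depth the value at 5-6 h is not set off from 6-7 h. In the gene table, FBgn0001077 had 892, 35.9, 76.5 and 87.4 RPM. A promoter with closer flanks was the TSC from 1793383 to 1793535 on the minus strand of scaffold 4820, with 127.0 (118.1 to 136.6), 60.4 (52.7 to 69.2), 20.9 (15.3 to 28.7) and 194.3 RPM (171.8 to 219.8). In the gene table FBgn0015221 had 130.0, 64.9, 22.9 and 196.3 RPM. Here 5-6 h, not 4-5 h, was the low point.

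The lower TSCs were wide and often lay downstream of another start site of their gene. Their median width was 149 bp, against 104 bp for all programme TSCs kept. Of the 331 assigned to a gene, 184 (55.6%) lay downstream of the most upstream TSC of that gene, against 1322 of 6053 (21.8%) of the programme TSCs kept and 18 of 102 (17.6%) of the higher TSCs. These shares include genes with a single TSC, where none can lie downstream. In genes with at least 2 TSCs the counts were 184 of 238 lower, 1322 of 2932 kept and 18 of 36 higher TSCs. The contrast for lower TSCs was smaller there, and the higher TSCs were not below the background. Of the 97 lower TSCs with no gene, 17 lay on scaffold 1390 and 80 elsewhere. Both 4-6 h values lay below both 2-3 h and 8-9 h in 210 of the 428 (49.1%), against 25.1% of all programme TSCs kept. The association with width and place was not tested, and the TSCs of a gene share its reads.

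Promoter choice within genes was read from 788 genes that had at least 2 TSCs, none of them set apart, and at least 100 reads in each of the 4 libraries. The share of the most upstream TSC exceeded both flanks at both 4-6 h hours in 239 of these genes and lay below both in 64, and the median change was 0.19 percentage points (quartiles -0.11 and 1.45). A change of at least 10 points without overlap was seen in 28 genes upward and 6 downward. The difference was thus small in most of these genes, and more often upward than downward for the upstream start site. No such count is given over all 1003 genes with at least 2 TSCs and these reads, so it has no background beside it.

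A few genes showed a large shift. On scaffold 4929, the TSC from 15583924 to 15584063 held 20.3% (19.0 to 21.8), 75.5% (72.2 to 78.5), 62.7% (57.3 to 67.7) and 38.8% (33.9 to 44.0) of its gene's reads. The most upstream TSC of the gene, from 15573831 to 15574026, held 78.6%, 24.1%, 37.3% and 60.9%. The level of this upstream promoter was 421, 50.1, 66.7 and 165.8 RPM, and in the limma test described next it was called lower (adjusted p = 0.041).

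The shift ran the other way, toward the upstream start site, in the next genes by size. On the minus strand of scaffold 4845, the TSC from 22274207 to 22274406 held 35.2%, 68.7%, 51.5% and 35.1% of its gene's reads in order of age, while a wide TSC further downstream, from 22254186 to 22255003, held 52.7%, 23.9%, 37.4% and 49.8%. On scaffold 4784, the TSC from 5049220 to 5049359 held 36.5%, 63.6%, 51.4% and 35.1%, and a downstream TSC of the same gene, from 5054692 to 5054994, held 14.3%, 4.57%, 5.61% and 12.3%. Another downstream TSC of this gene, from 5050155 to 5050451, held 43.0%, 27.0%, 40.3% and 46.6%. The gene had 3820, 1029, 553 and 610 reads, and its upstream TSC 1393, 654, 284 and 214, in libraries of unequal depth. A larger share is thus not a higher level, since a share also grows when the other start sites of the gene fall. In both genes 3-4 h and 6-7 h were nearly equal and 4-5 h departed further than 5-6 h. In 3 of the 788 genes without a TSC set apart, the share of some TSC differed by at least 20 points without overlap. These 3 are the genes just described. Over all 1003 genes with at least 2 TSCs and enough reads, 9 had such a difference.

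A departure of 4-5 h and 5-6 h from the course of all 23 hours was tested with limma, on log2(RPM + 1) with a smooth curve over age plus a term for these hours, with the scatter of the other hours around the curve as error. Of the 5627 programme genes tested, 10 (0.178%) were called higher and 34 (0.604%) lower at a Benjamini-Hochberg adjusted p under 0.05, beside 6.46% higher and 0.417% lower over all 8401 genes. Among the 2774 genes set apart, 533 (19.2%) were called higher and 1 lower. The counts of both parts are a description only, since the split used the flanks and the late libraries, which are also in the fit. The split takes genes with low flanks and high late levels out of the programme, which works against higher calls there. Of the 35 genes called lower over all genes, 34 are programme genes, so that share is no separate comparison. The same limits hold for the TSC counts below. Without the 4-5 h library limma called 2 programme genes higher, 7 lower and 93 set-apart genes higher, and without the 5-6 h library 4, 19 and 433. On the recovered reads, edgeR called 4 programme genes higher and 40 lower, and DESeq2 14 and 90. Of the programme's TSCs, 30 of 9879 were called higher and 60 lower, beside 5.66% and 0.408% over all 14966 tested, in a fit added after the data were seen. Without 4-5 h these TSC counts were 19 and 9, and without 5-6 h 42 and 33. On recovered reads edgeR called 3 programme TSCs higher and 78 lower and DESeq2 25 and 136, and limma without the filter called 109 and 52, which turned the balance.

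The limma calls and the fold rule shared few higher promoters. Of the 30 TSCs called higher by limma, 7 were among the 131 higher by the fold rule, and of the 60 called lower, 27 were among the 428. None of the 12 higher TSCs described above passed limma (adjusted p from 0.144 to 0.775). The TSC with the smallest p, on scaffold 4784 from 13500268 to 13500292 on the plus strand with no gene, had 1.23, 10.6, 3.86 and 0 RPM and was at its highest of the series at 4-5 h. Its departure from the curve was 2.53 ± 0.35 (log2, SE). It rested on 7, 36, 7 and 0 reads, and its 3-4 h and 5-6 h Wilson intervals overlapped (0.595 to 2.54 and 1.87 to 7.96 RPM). Its mean was below 5 RPM, so it was tested by limma but not kept for the fold rule. None of the 6 higher TSCs with the smallest p exceeded 10.6 RPM in any library. Of the 10 lower TSCs described, 2 passed limma, the upstream promoter on scaffold 4929 given above and the downstream TSC from 5054692 to 5054994 on scaffold 4784, which had 96.2, 13.8, 17.1 and 57.8 RPM (adjusted p = 0.036, departure -1.98 ± 0.57).

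The limma call of a strong gene-less promoter shows a dip within a long course. The TSC from 23724206 to 23724406 on the plus strand of scaffold 4784 had 387, 298, 124.5 and 874 RPM, against 1926 RPM at 2-3 h and 1158 RPM at 8-9 h, and departed from the curve by -1.99 ± 0.42 (limma, adjusted p = 0.0040). The TSC set apart that was called lower, on scaffold 4770 from 2317507 to 2317575 on the plus strand, had 21.8, 0, 0.551 and 13.1 RPM, with a mean of 38.9 RPM at 20-23 h (limma, adjusted p = 0.030). The Wilson interval of the 0 at 4-5 h reaches 1.13 RPM. This promoter was highest at 15-16 h (3855 RPM).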

How the data were processed

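Values were taken from tables of genes and of TSCs in RPM as deposited by the authors, whose alignment (STAR) was to the FlyBase release 1.3 genome and who called TSCs on the reads of the whole series and removed those on annotated rDNA. The start and end columns of the deposited TSC list, by the authors, gave positions, printed 1-based. Deposited RPM values were whole multiples of 1 read within 0.1 reads (100% of 185320 gene values and 379172 TSC values), so whole reads were recovered. Intervals are 95% Wilson intervals of those reads and cover counting error only, since reads are not independent molecules.

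The members and all lists were chosen with earlier results of these data known. The fold rule used log2(RPM + 1), a mean of at least 5 RPM and a difference of at least 1, which understates the change of low features. limma (3.58.1, trend, R 4.3.3) used a natural spline of 4 df and a term for 4-6 h on features passing filterByExpr of edgeR (4.0.16, minimum count 10). edgeR and DESeq2 (1.42.0) on the recovered reads were alternatives. The p-values measure departure from a smooth curve, not replicate spread. The rule for described TSCs took the 12 with the largest differences among those higher and the 10 among those lower (at least 50 RPM in both 4-6 h or both flanking libraries), and the 6 set apart with the highest 4-6 h mean. It was meant for genes and applied to TSCs because they have positions. The TSCs stepping up or down, those with promoter shifts, those at the threshold and the further limma calls were chosen after their values were seen. Gene lists by function and cell type markers could not be applied, because the identifiers in the files are not paired with gene names in the tables used here, and no genome of this release was used, so no sequence is shown. No sample column was left unused (0). Python 3.11.15 with pandas 2.3.3 and scipy 1.17.1 was used.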

Additional observations from a re-analysis of the deposited data

How the results depend on the processing

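No paired analysis was possible because each hour has 1 sample, and no spread between replicates could be set against any count. By the fold rule, 80 programme genes were higher and 126 lower, 430 set-apart genes higher and 15 lower, and 131 programme TSCs higher and 428 lower. Rescaling RPM to the reads of the features not set apart gave 138 and 83 programme genes and 257 and 272 programme TSCs. A pseudocount of 5 RPM gave 27 and 67 programme genes, 44 and 216 programme TSCs and 7 set-apart genes lower. Without the filter there were 1025 set-apart genes higher and 26 lower, and 317 and 949 programme TSCs. A filter of 20 RPM gave 31 and 75 programme genes, 154 and 4 set-apart genes, and 51 and 160 programme TSCs. A difference of at least 0.58 gave 306 and 475 programme genes, 32 set-apart genes lower, and 446 and 970 programme TSCs, and one of at least 2 gave 1 and 8, 3, and 4 and 30. With the split made on 2-3 h and 8-9 h, 3 set-apart genes were lower, and with a late mean above 0.5 of the larger flank 41 were. Subtracting the late profile gave 172 programme genes higher, 92 set-apart genes higher and 62 lower, and 285 programme TSCs higher.

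Leaving out 1 of the 4 libraries gave 155 to 436 programme genes higher and 197 to 418 lower, 306 to 540 set-apart genes higher and 18 to 32 lower, and 242 to 636 programme TSCs higher and 467 to 925 lower. The counts were largest without 6-7 h for all of these, and larger than with all 4 libraries without any of them for the programme, where the rule then compares fewer values.

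The share of reads in genes set apart, with the split on 2-3 h and 8-9 h, was 4.348%, 12.1%, 8.489% and 4.595% in order of age. By limma (10 programme genes higher, 34 lower, 533 set-apart genes higher, 1 lower), 17 programme genes were higher and 3 set-apart genes lower with 6 df, 5 and 2 with a pseudocount of 0.1 RPM, and 6 programme genes were higher with TMM factors. Without 7-8 h 2 set-apart genes were lower, and with the other split 0 were. On recovered reads edgeR called 4 programme genes higher and 0 set-apart genes lower, and DESeq2 called 90 programme genes lower and 4 set-apart genes lower. Unadjusted p under 0.05 was reached in limma by 175 programme genes higher and 223 lower, and by 13 set-apart genes lower. Leaving out 4-5 h or 5-6 h gave 2 to 4 programme genes higher, 7 to 19 lower, 93 to 433 set-apart genes higher and 0 to 2 lower. The cause of these moves was not tested. The shallow 6-7 h library limits what can be said of low promoters, since 3 reads there are worth 2.31 RPM.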
